A study of Homo sapiens with 24 samples.

Results

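The BCL2 family genes described here are 10 regulators of the mitochondrial route of apoptosis, chosen by name: MCL1, BCL2, BCL2L1, BCL2L11, BAX, BAK1, BID, BBC3, PMAIP1 and BIK. They are 10 of the 26249 genes with an entry in the deposited tables. RNA was measured in 24 libraries. The cells were H929 and MM1S, both established lines from human multiple myeloma, grown in RPMI medium with serum. Each line received the vehicle DMSO or YKL-5-124 (YKL below), a compound known by this code name that the series title places against the kinase CDK7, and was collected after 6 h or 24 h. The 8 groups of 3 libraries were therefore H929 with DMSO or YKL at 6 h, the same pair at 24 h, and the 4 matching groups of MM1S. The labels gave 83 nM for H929 and 98 nM for MM1S, on DMSO and YKL samples alike, so line and dose cannot be told apart. CDK7 is the kinase of TFIIH, which phosphorylates RNA polymerase II and activates the kinases of the cell cycle. The question behind the members is how the RNA of survival and death genes changed under the compound in these lines.

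The family works by contact between its proteins at the outer mitochondrial membrane. BAX and BAK1 are the effectors that form pores and release cytochrome c. MCL1, BCL2 and BCL2L1 (BCL-XL) hold the effectors and their activators in check. BID, BCL2L11 (BIM), BBC3 (PUMA), PMAIP1 (NOXA) and BIK are BH3-only proteins, which carry the death signal by activating the effectors or by occupying the protective members. Myeloma cells are known for their dependence on MCL1, whose mRNA and protein are both short-lived. PMAIP1 binds MCL1 with preference, and BBC3, PMAIP1 and BAX are known targets of p53.

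The values are FPKM from libraries that read the 3′ ends of transcripts. Because FPKM divides by the length of a gene and such reads do not scale with it, levels are compared between samples and never between genes. Isoforms, such as the long and short products of BCL2L1 or MCL1, are not separated by such reads. On the deposited scale the spike-in transcripts were nearly level across libraries while the summed FPKM of genes was not, so a value holds both the share of a gene and the amount of gene RNA in its library. A rescaled value is the FPKM divided by the library's scale factor, the median over 6014 expressed genes of the ratio to each gene's mean. The scale factor of the YKL libraries was 0.873 times that of DMSO in H929 at 6 h, 0.558 times at 24 h, 0.722 times in MM1S at 6 h and 0.826 times at 24 h. Fewer cells and less RNA per cell cannot be told apart in these bulk samples. A pair of libraries had scattered spike-ins, MM1S YKL 6 h replicate 2 with an SD of 0.964 (log2) and MM1S DMSO 24 h replicate 1 with 0.58, against at most 0.329 in the others. MM1S DMSO 24 h replicate 2 stood apart in scale, with a factor of 0.808 beside 0.445 and 0.365 in the other libraries of its group.

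The lines matched their labels at FGFR3, which in DMSO libraries of 6 h was 29.5 ± 1.53 FPKM for H929 against 0.222 ± 0.218 for MM1S (SD, n = 3). The 3 MM1S markers, MAF, CCND2 and ITGB7, went partly the other way as deposited. With DMSO, limma called 1 higher and 2 lower in H929, beside 61.7% and 10.3% of all genes. Rescaled, 0 were higher and 3 lower, beside 26.6% and 41.1%. MAF with DMSO at 24 h was at 16.2 ± 2.11 FPKM in H929 and 16.4 ± 6.78 in MM1S as deposited. All 8 plasma cell markers reached 1 FPKM in some library. Of the markers of other cell types, 2 of 5 T cell, 3 of 6 monocyte and 3 of 7 fibroblast and epithelial genes reached 1 FPKM anywhere, and their summed levels were at most 4.43, 36.3 and 34.1 FPKM in a library. In H929 at 24 h the monocyte gene S100A8 rose under YKL (log2 change 1.30 ± 0.27, limma adjusted p = 0.000677, as deposited) and the epithelial gene KRT18 fell (-0.84 ± 0.29, adjusted p = 0.026). The median change of the 2 monocyte genes tested was 0.46 there, so the other had a change below 0, which was not called. There the summed monocyte markers spanned 7.26 to 36.3 FPKM with DMSO and 10 to 18.2 with YKL, and the fibroblast and epithelial markers 27.1 to 30.1 and 9.18 to 24.8. In MM1S at 24 h the T cell gene CD3G rose after rescaling, from 0.560 ± 0.278 to 2.16 ± 0.327 rescaled FPKM (1.03 ± 0.26, adjusted p = 0.00505). The other of the 2 T cell genes tested went the other way and was not called, and the rescaled median change of the 2 was 0.14. The summed T cell markers spanned 0.591 to 1.69 FPKM with DMSO and 1.15 to 1.43 with YKL there, as deposited. Their part in the changes of the members was not tested.

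All 10 members passed the filter of the test, at least 1 FPKM in at least 3 libraries. PMAIP1 reached 1 FPKM in 17 of the 24 libraries and the others in all 24. Changes below are log2 differences of log2(FPKM + 1) with their standard error, and adjusted p-values come from limma with Benjamini-Hochberg adjustment over all 12418 genes tested. A member is called where the adjusted p is under 0.05. The scale understates the change of a low gene such as PMAIP1. The labels do not say whether the 3 libraries of a group are from separate cultures. The p-values therefore speak only of the spread among these libraries, which may be technical.

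Promoter windows of 300 bases, most of them before a start site (RefSeq, GRCh38.p14), were at hand for 8 of the 10 members, all but MCL1 and BIK. Those of BCL2L1, BCL2L11 and BAX are shown as examples. As deposited, BCL2L1 was called higher under YKL (H929, 24 h), and BCL2L11 (MM1S, 6 h) and BAX (H929, 24 h) were called lower. A link between the windows and these changes was not tested. BCL2L1 has a window at chr20:31722819-31723118 and another at chr20:31723914-31724213, both on the minus strand. The window of BCL2L11 is chr2:111120664-111120963 and that of BAX chr19:48954625-48954924, both on the plus strand. Capitals mark the exact letters of 4 motifs searched on both strands, the TATA box (TATAAA), the CCAAT box (CCAAT), the GC box (GGGCGG) and the E-box (CACGTG), so a match on the other strand appears as its reverse complement.
BCL2L1 window 1: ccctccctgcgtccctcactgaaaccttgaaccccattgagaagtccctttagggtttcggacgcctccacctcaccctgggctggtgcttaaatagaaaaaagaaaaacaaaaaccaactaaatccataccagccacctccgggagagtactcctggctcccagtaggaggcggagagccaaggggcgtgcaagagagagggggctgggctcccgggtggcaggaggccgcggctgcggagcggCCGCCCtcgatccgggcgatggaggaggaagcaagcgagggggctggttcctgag
BCL2L1 window 2: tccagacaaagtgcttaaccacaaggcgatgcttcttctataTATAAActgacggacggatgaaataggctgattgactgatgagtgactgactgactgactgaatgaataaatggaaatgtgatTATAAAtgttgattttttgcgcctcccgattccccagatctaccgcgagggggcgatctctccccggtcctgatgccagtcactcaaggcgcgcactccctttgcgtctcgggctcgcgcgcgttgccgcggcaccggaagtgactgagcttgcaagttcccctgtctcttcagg
BCL2L11: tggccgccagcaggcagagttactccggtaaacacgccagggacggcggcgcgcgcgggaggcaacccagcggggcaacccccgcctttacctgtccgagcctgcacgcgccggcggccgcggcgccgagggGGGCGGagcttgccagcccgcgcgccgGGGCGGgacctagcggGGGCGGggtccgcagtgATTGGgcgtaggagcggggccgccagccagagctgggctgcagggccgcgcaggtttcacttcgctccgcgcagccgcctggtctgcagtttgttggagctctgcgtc
BAX: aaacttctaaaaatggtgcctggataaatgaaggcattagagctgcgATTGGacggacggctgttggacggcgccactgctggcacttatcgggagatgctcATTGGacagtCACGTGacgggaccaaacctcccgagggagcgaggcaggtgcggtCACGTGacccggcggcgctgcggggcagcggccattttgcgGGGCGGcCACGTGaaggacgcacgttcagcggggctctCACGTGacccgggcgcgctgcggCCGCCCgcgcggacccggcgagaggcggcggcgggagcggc
The second BCL2L1 window held 2 TATA boxes, a motif found in 11.5% of 35116 windows of this length. BCL2L11 held 3 GC boxes and 1 CCAAT box, which stood in 45% and 34.6% of windows. BAX held 4 E-boxes, 2 CCAAT boxes and 2 GC boxes, and the E-box was found in 7.26% of windows. The shares count windows with at least 1 match, whatever the number of matches. Such matches describe the letters of the window, and reads from 3′ ends do not show which start site was used.

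**Figure D1:**
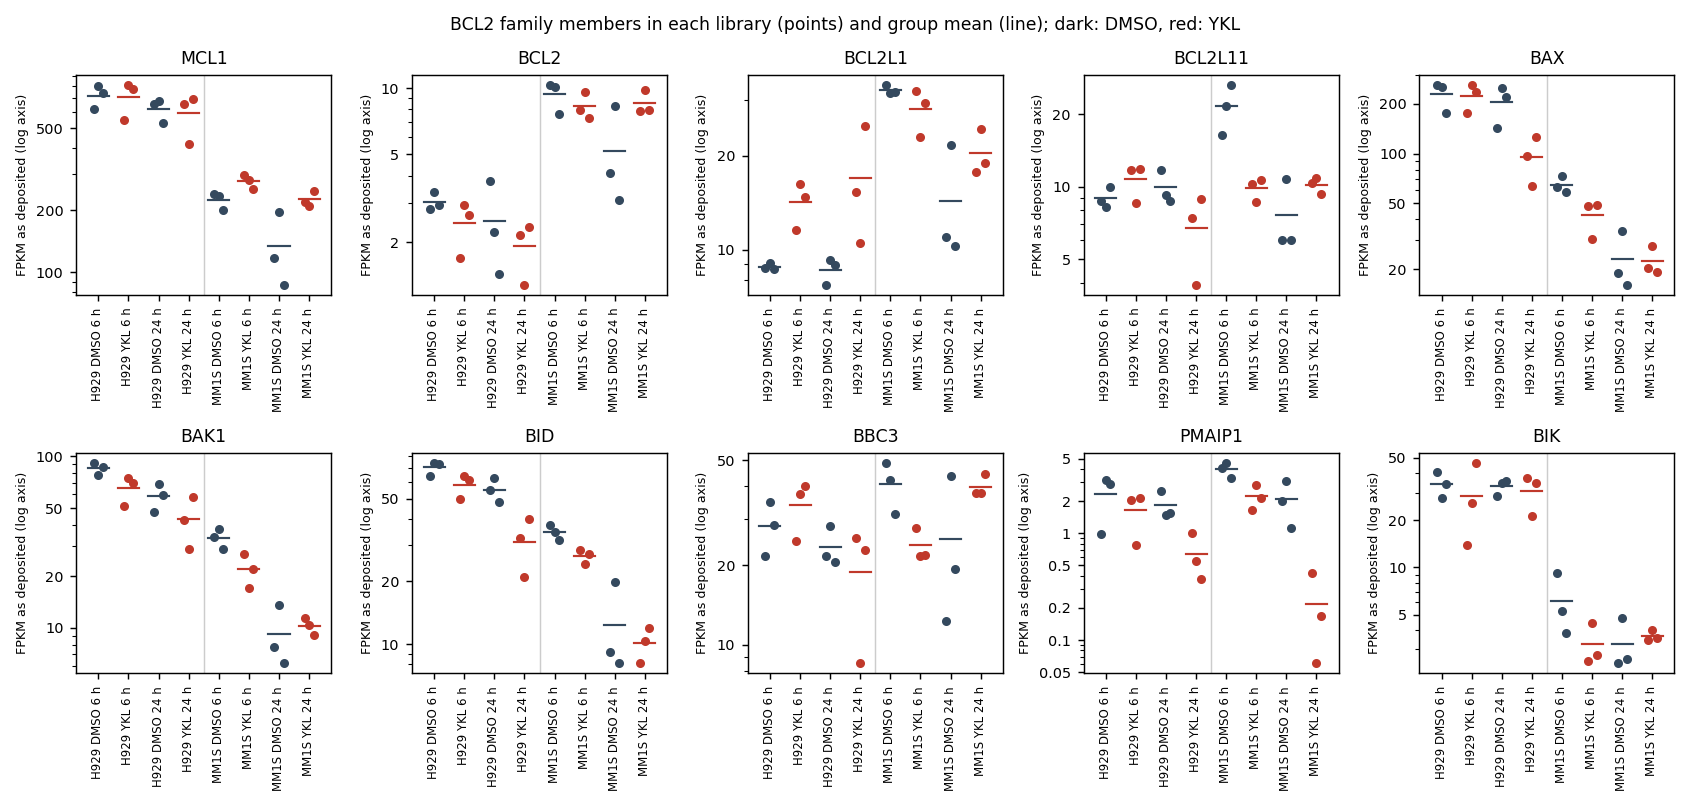
FPKM as deposited (log axis) of the 10 members in each of the 24 libraries (points) with the group mean (line), DMSO dark and YKL red, H929 to the left of the grey line and MM1S to the right. MCL1 in H929 lay between 418 and 814 FPKM with or without YKL, BCL2L1 in H929 was higher in all YKL libraries than in all DMSO libraries, and PMAIP1 in MM1S at 24 h fell to 0.427 FPKM or less.

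MCL1, the protective member on which myeloma cells are known to depend, was not called in any YKL comparison on the deposited scale and rose in 3 of the 4 after rescaling. In H929 at 6 h it was at 620.0, 799 and 741 FPKM with DMSO and at 550.3, 814 and 771 with YKL. As deposited the groups overlapped, with a change of -0.03 ± 0.26 (adjusted p = 0.984). Rescaled, every YKL library lay above every DMSO library, and the change of 0.17 ± 0.08 was not called (adjusted p = 0.231). In H929 at 24 h the values were 658, 678 and 528 with DMSO and 659, 418 and 694 with YKL. Here the lowest library, YKL replicate 2, also had the lowest scale factor of its group, 0.671, and the change was -0.10 ± 0.26 (adjusted p = 0.798). Rescaled, the 3 YKL libraries (614, 630.1 and 539) lay above the 3 DMSO libraries (386, 354 and 327), a rise of 0.74 ± 0.08 (adjusted p = 9.56e-07).

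In MM1S the MCL1 values did not overlap at either time. At 6 h they were 239.9, 234 and 202 FPKM with DMSO and 297, 281 and 254 with YKL. The deposited change of 0.30 ± 0.26 did not pass the test (adjusted p = 0.492) and the rescaled one of 0.77 ± 0.08 did (adjusted p = 3.61e-06). At 24 h MCL1 was at 118, 197 and 86.9 with DMSO and at 219, 211 and 249 with YKL. The second DMSO library is the one that stands apart in scale. With it the deposited change was 0.83 ± 0.26 (adjusted p = 0.0545), and without it 1.15 (adjusted p = 0.00457). After rescaling MCL1 was 2.16 times as high with YKL, from 252 ± 14.5 to 544 ± 29.5 FPKM (SD, n = 3; 1.11 ± 0.08, adjusted p = 5.23e-09). The scale factors of the YKL libraries were lower on average in all 4 comparisons, so the rescaled change of MCL1 exceeds the deposited one by construction.

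**Figure D2:**
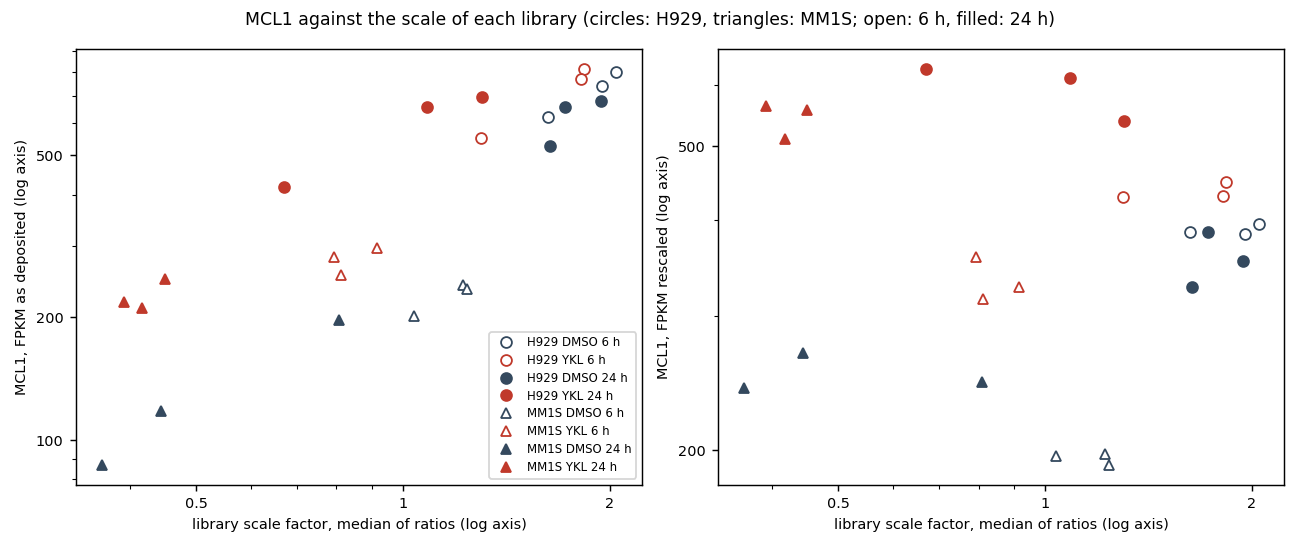
MCL1 in each library (log axis) against the library's scale factor (log axis), as deposited on the left and rescaled on the right, circles for H929, triangles for MM1S, open for 6 h, filled for 24 h, dark for DMSO and red for YKL. As deposited, the H929 groups overlap and the MM1S YKL libraries lie above DMSO libraries of like scale; rescaled, the YKL libraries at 24 h lie between 509.9 and 630.1 FPKM in both lines, above every DMSO library.

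BCL2L1, which encodes the protective BCL-XL, was higher in H929 with YKL at both times. At 6 h it was at 8.71, 9.08 and 8.67 FPKM with DMSO and at 11.6, 16.3 and 14.7 with YKL. The groups did not overlap, yet the deposited change of 0.62 ± 0.27 missed the threshold (adjusted p = 0.266) and the rescaled one of 0.75 ± 0.13 passed (adjusted p = 0.00126). At 24 h the values were 7.71, 9.26 and 8.93 with DMSO and 15.3, 10.5 and 24.9 with YKL. BCL2L1 was the only member called higher on both scales in any YKL comparison. Its change here was 0.82 ± 0.27 as deposited (adjusted p = 0.0206) and 1.54 ± 0.13 rescaled (adjusted p = 3.59e-08), which is 3.32 times the DMSO mean. The deposited call rested on 2 libraries: without DMSO replicate 1 the adjusted p was 0.0701 and without YKL replicate 3, the highest, it was 0.129.

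In MM1S at 6 h BCL2L1 was at 33.7, 31.8 and 31.9 FPKM with DMSO and at 32.1, 22.9 and 29.4 with YKL. These groups overlapped and no change was called (-0.21 ± 0.27, adjusted p = 0.652; rescaled 0.24 ± 0.13, adjusted p = 0.237). At 24 h the values were 11, 21.6 and 10.2 with DMSO and 17.7, 24.3 and 18.9 with YKL. The change was 0.54 ± 0.27 (adjusted p = 0.278) and, rescaled, 0.83 ± 0.13 (adjusted p = 8.02e-05). The second DMSO library again overlapped the YKL group, and without it the deposited change was 0.86 (adjusted p = 0.044).

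BCL2, the founding protective member, was lower in H929 than in MM1S and was not called there under YKL. H929 held 1.43 to 3.79 FPKM with DMSO and 1.28 to 2.94 with YKL over both times, and the changes were -0.25 ± 0.27 at 6 h and -0.22 ± 0.27 at 24 h (adjusted p = 0.748 and 0.563; rescaled -0.10 ± 0.16 and 0.30 ± 0.16, adjusted p = 0.792 and 0.163). In MM1S at 6 h it was at 10.4, 10.2 and 7.66 with DMSO and 7.99, 9.60 and 7.34 with YKL. As deposited these groups overlapped (-0.16 ± 0.27, adjusted p = 0.765). Rescaled they did not overlap, and the change was not called (0.27 ± 0.16, adjusted p = 0.29). At 24 h in MM1S BCL2 was at 4.13, 8.26 and 3.11 with DMSO and at 7.86, 9.82 and 7.98 with YKL. Only DMSO replicate 2 reached the YKL range. The deposited change was 0.71 ± 0.27 (adjusted p = 0.126), or 1.05 without that library (adjusted p = 0.0158), and the rescaled rise was 1.05 ± 0.16 (adjusted p = 6.03e-05).

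The effector BAX fell as deposited in H929 at 24 h. It was at 143, 248 and 219.6 FPKM with DMSO and at 96.2, 64.0 and 125 with YKL, and the groups did not overlap. The change was -1.10 ± 0.30 (adjusted p = 0.00643), and -0.27 ± 0.20 after rescaling, which did not pass (adjusted p = 0.336). Without YKL replicate 2, the library of the lowest scale factor in its group, the deposited adjusted p was 0.055. At 6 h the H929 groups overlapped (175 to 258 against 175 to 261 FPKM; -0.03 ± 0.30, adjusted p = 0.986). In MM1S BAX went from 62.5, 73.4 and 58.3 to 48.5, 30.3 and 48.8 FPKM at 6 h, with no overlap and no call (-0.62 ± 0.30, adjusted p = 0.188; rescaled -0.16 ± 0.20, adjusted p = 0.656). At 24 h it was at 16.1 to 33.9 with DMSO and 19.3 to 27.7 with YKL (0.02 ± 0.30, adjusted p = 0.999).

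BAK1, the other effector, was called only in MM1S at 24 h and only after rescaling. As deposited it was at 7.71, 13.7 and 6.22 FPKM with DMSO and 11.4, 10.4 and 9.15 with YKL there, with overlap (0.21 ± 0.27, adjusted p = 0.779). The rescaled values, 17.5, 17.1 and 17.3 against 29.3, 25.2 and 20.5, did not overlap and gave a rise of 0.49 ± 0.14 (adjusted p = 0.0148). That call was lost without YKL replicate 1, the highest of them (adjusted p = 0.0919). In H929 the deposited BAK1 values spanned 78.1 to 91.7 FPKM with DMSO and 51.5 to 75.1 with YKL at 6 h, and 47.6 to 69.3 and 29 to 57.9 at 24 h. At 6 h the groups did not overlap, and neither difference was called (-0.39 ± 0.27, adjusted p = 0.548; -0.48 ± 0.27, adjusted p = 0.172). Rescaled, the 24 h difference turned to 0.34 ± 0.14 without overlap, from 33.7 ± 4.99 with DMSO to 42.8 ± 2.75 with YKL, and was not called (adjusted p = 0.0738). In MM1S at 6 h BAK1 was at 34.0, 38.0 and 28.7 with DMSO and 26.9, 17.1 and 21.9 with YKL, also without overlap or call (-0.60 ± 0.27, adjusted p = 0.154).

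Among the BH3-only genes, BCL2L11 (BIM) fell in MM1S at 6 h. It was at 16.3, 21.7 and 26.5 FPKM with DMSO and at 10.3, 8.64 and 10.6 with YKL, with every YKL library below every DMSO library. The deposited change was -1.03 ± 0.26 (adjusted p = 0.0129) and the rescaled one -0.60 ± 0.20 (adjusted p = 0.0535). These calls depended on single libraries. As deposited the adjusted p was 0.0621 without DMSO replicate 3 and 0.0586 without YKL replicate 2, which has scattered spike-ins, and rescaled it was 0.0168 without DMSO replicate 1. At 24 h in MM1S BCL2L11 was at 6.02, 10.8 and 5.99 with DMSO and 10.3, 10.9 and 9.29 with YKL. It rose there after rescaling (0.71 ± 0.20, adjusted p = 0.0126, or 0.0502 without YKL replicate 1) and was not called as deposited (0.42 ± 0.26, adjusted p = 0.418). In H929 it stayed within 3.91 to 11.9 FPKM in all its libraries, with no call at 6 h (0.22 ± 0.26, adjusted p = 0.768) or 24 h (-0.55 ± 0.26, adjusted p = 0.0955).

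BBC3 (PUMA) rose after rescaling in MM1S at 24 h. As deposited it was at 12.3, 43.5 and 19.5 FPKM with DMSO and at 37.5, 37.5 and 44.1 with YKL. The deposited change was 0.82 ± 0.37 (adjusted p = 0.211), or 1.30 without DMSO replicate 2 (adjusted p = 0.0257). Rescaled, BBC3 went from 27.9, 54.4 and 53.9 to 96.5, 90.8 and 98.9, a rise of 1.12 ± 0.21 (adjusted p = 0.000354). At 6 h in MM1S the values lay the other way, 48.8, 41.9 and 31.2 with DMSO and 27.8, 21.8 and 21.9 with YKL. These groups did not overlap but were not called (-0.73 ± 0.37, adjusted p = 0.2; rescaled -0.28 ± 0.21, adjusted p = 0.407). In H929 at 6 h BBC3 was at 21.7, 34.6 and 28.4 with DMSO and 24.7, 37.2 and 39.9 with YKL. At 24 h it was at 20.6 to 28.1 against 8.53 to 25.4. As deposited the groups overlapped at both times. Rescaled, the 6 h groups did not overlap, at 13.5, 17.1 and 14.7 against 19.2, 20.5 and 22.2 (0.43 ± 0.21, adjusted p = 0.212). No change of BBC3 in H929 was called on either scale.

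PMAIP1 (NOXA), the BH3-only partner of MCL1, fell in both lines at 24 h on the deposited scale. In MM1S it was at 2.01, 3.12 and 1.11 FPKM with DMSO and at 0.427, 0.0606 and 0.168 with YKL. Beside them stand 0.0966, 0.0742 and 0.0818 FPKM, the most common value of all entries in those libraries, so the ratio is not resolved at this depth, which is unknown. PMAIP1 was the only member called lower on both scales in a YKL comparison. Its change in MM1S at 24 h was -1.30 ± 0.29 as deposited (adjusted p = 0.00553) and -1.69 ± 0.26 rescaled (adjusted p = 5.76e-05). In H929 at 24 h it was at 2.48, 1.47 and 1.55 with DMSO and at 1.01, 0.553 and 0.371 with YKL. That change was -0.79 ± 0.29 (adjusted p = 0.0349) and, rescaled, -0.30 ± 0.26 (adjusted p = 0.424). The deposited call was lost without DMSO replicate 1 or 2 or YKL replicate 2 or 3, with adjusted p-values from 0.0517 to 0.142. At 6 h the values were 0.978, 3.14 and 2.90 against 2.03, 0.771 and 2.12 in H929 (-0.31 ± 0.29, adjusted p = 0.696) and 4.13, 4.57 and 3.29 against 1.66, 2.83 and 2.16 in MM1S. The MM1S groups did not overlap at 6 h, and the change of -0.64 ± 0.29 was not called (adjusted p = 0.152).

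BID, which is activated by caspase cleavage and links the death receptors to mitochondria, fell in H929 at 24 h as deposited. It was at 54.9, 62.4 and 48.2 FPKM with DMSO and at 32.4, 20.9 and 39.9 with YKL, without overlap (-0.85 ± 0.27, adjusted p = 0.0158). Rescaled, the 6 libraries lay between 29.8 and 32.5 and the change was -0.03 ± 0.09 (adjusted p = 0.861, 95% interval -0.22 to 0.17). The deposited call was lost without DMSO replicate 2 (adjusted p = 0.0703) or YKL replicate 2 (adjusted p = 0.116). In the other YKL comparisons its rescaled change was -0.08 ± 0.09, 0.09 ± 0.09 and 0.09 ± 0.09, none of which was called. BIK, a BH3-only protein of the endoplasmic reticulum, was called in no YKL comparison. In H929 at 24 h it was at 28.6, 34.3 and 35.6 with DMSO and 36.9, 21.1 and 34.6 with YKL (-0.12 ± 0.34, adjusted p = 0.819; rescaled 0.69 ± 0.28, adjusted p = 0.0604). Its values in H929 with YKL at 6 h, 13.8, 25.6 and 46.4, spread more widely than those with DMSO, 40.8, 27.9 and 34.1. In MM1S BIK lay between 2.45 and 9.25 FPKM in all groups.

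Counted together, few members were called except in MM1S at 24 h after rescaling. In H929 at 6 h no member was called as deposited (0 of 10; limma called 2.19% of all genes, and 1 member and 1862 genes had an unadjusted p under 0.05). After rescaling 1 member was higher there and 0 lower, where 5.1% and 4.19% of genes were called in those directions. In H929 at 24 h the deposited counts were 1 higher and 3 lower, with 2.67% and 35.4% of genes, and the rescaled counts 2 higher and 0 lower, with 20.8% and 12.5%. Scaling every library there to an equal summed gene FPKM gave 5 higher and 0 lower. The share of all genes called under that scaling is not given here, so this count is not read as a result about the members. In MM1S at 6 h they were 0 higher and 1 lower as deposited, with 0.926% and 10% of genes, and 1 higher and 0 lower rescaled, with 8.25% and 7.22%. In MM1S at 24 h they were 0 higher and 1 lower as deposited, with 0.684% and 6.77% of genes. After rescaling 6 of the 10 were higher (MCL1, BCL2, BCL2L1, BCL2L11, BAK1 and BBC3) and 1 was lower (PMAIP1), where 14.4% and 13.3% of all genes were called. Protective members and death genes stand side by side among those 6. Counted by groups that do not overlap as deposited, 1 member was higher and 1 lower in H929 at 6 h (8.61% and 12.5% of genes), 1 and 3 in H929 at 24 h (3.62% and 45.6%), 1 and 6 in MM1S at 6 h (2.96% and 36.8%), and 1 and 1 in MM1S at 24 h (3.3% and 14.6%). Rescaled, the counts were 3 and 0 (24.2% and 12.3%), 4 and 0 (32% and 18.6%), 3 and 1 (17.2% and 13%), and 7 and 1 (19.2% and 16.4%), in the same order.

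The median change of the members followed the scale. In the order H929 6 h, H929 24 h, MM1S 6 h, MM1S 24 h it was -0.14, -0.45, -0.61 and 0.31 as deposited, beside -0.06, -0.46, -0.29 and -0.12 over all genes tested. Rescaled it was 0.04, 0.32, -0.15 and 0.60, beside 0.07, 0.13, 0.05 and 0.05. The median member therefore stood below the median gene at 6 h and above it at 24 h, in both lines and on both scales. In H929 the medians were close at 24 h as deposited (-0.45 beside -0.46) and at 6 h rescaled (0.04 beside 0.07). This describes the list, and no test of it was made. Rescaling moved the median of all genes by more than 0.1 in each comparison, which is the shift against which single members should be read.

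**Figure D3:**
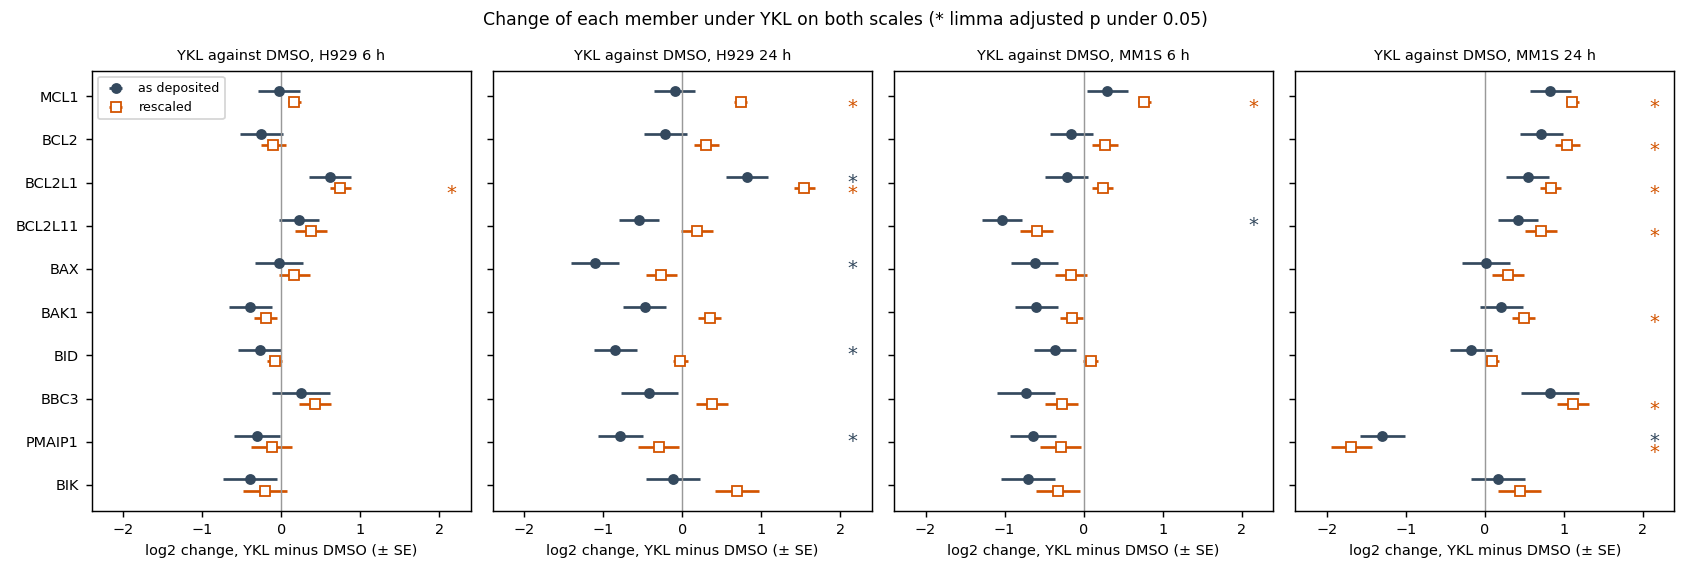
Log2 change of each member, YKL minus DMSO with its standard error, in the 4 comparisons, filled circles as deposited and open squares rescaled, with a star where the limma adjusted p is under 0.05. BCL2L1 in H929 at 24 h and PMAIP1 in MM1S at 24 h carry a star on both scales, and in MM1S at 24 h 7 members carry one after rescaling.

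Ratios of a member to MCL1 within a library do not depend on its scale. They were compared between the 3 YKL and 3 DMSO libraries of a comparison by a two-sided exact permutation test, in which 0.1 is the smallest p that 3 against 3 can give. All 36 ratios share MCL1, so they move together when MCL1 moves. In MM1S at 6 h all 9 ratios were lower with YKL without overlap, as were those of 56.7% of all other genes. The largest was BCL2L11 to MCL1, at -3.41 ± 0.47 (log2, SD, n = 3) with DMSO and -4.82 ± 0.22 with YKL, a difference of -1.40 (exact permutation p = 0.1, 0.15 adjusted over the 36). For BBC3 to MCL1 the difference was -1.06 and for BCL2L1 to MCL1 it was -0.52.

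In H929 BCL2L1 and, at 6 h, BBC3 were higher relative to MCL1 without overlap. BCL2L1 to MCL1 stood at -6.34 ± 0.17 with DMSO and -5.64 ± 0.07 with YKL at 6 h, and at -6.17 ± 0.27 and -5.18 ± 0.34 at 24 h. Both differences, 0.70 and 0.98, came without overlap (exact permutation p = 0.1 each), where 14.7% and 6.99% of genes were higher relative to MCL1 in that way. BBC3 to MCL1 differed by 0.29 at 6 h. The ratios of BCL2, BAK1 and BID were lower at 6 h, by differences of -0.33, -0.37 and -0.25, with 21.1% of genes. At 24 h those of BAX, BID, BCL2L11 and PMAIP1 were lower (-1.01, -0.77, -0.53 and -1.49), where 50.3% of genes were. The PMAIP1 difference was -0.69 with 1 FPKM added to both genes. In MM1S at 24 h 5 ratios were lower and 0 higher without overlap, beside 70.9% and 0.66% of genes: BAX (-0.81), BAK1 (-0.60), BID (-1.02), BIK (-0.61) and PMAIP1 (-4.38). The last rests on the YKL values under 0.5 FPKM given above and was -2.13 with 1 FPKM added to both genes. For BCL2 and BBC3 the groups overlapped there, with differences of 0.01 and 0.02 (exact permutation p = 0.9 and 1).

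**Figure D4:**
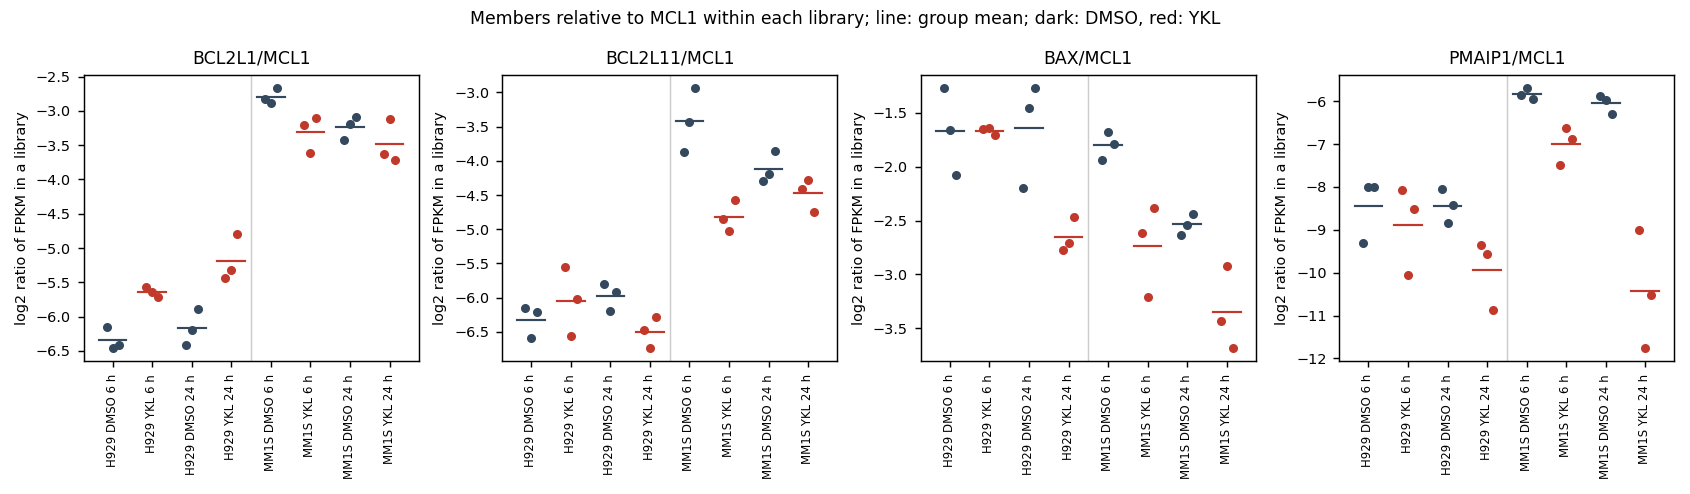
Log2 ratio of FPKM of BCL2L1, BCL2L11, BAX and PMAIP1 to MCL1 within each library (points) with group means (lines), DMSO dark and YKL red, H929 left of the grey line. The BCL2L1 ratio is higher with YKL in H929 (-5.18 against -6.17 at 24 h), the BCL2L11 ratio lower in MM1S at 6 h (-4.82 against -3.41), and the PMAIP1 ratio in MM1S at 24 h lies at -10.43 with YKL against -6.05.

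Without the compound the lines differed in nearly every member. With DMSO at both times, MCL1, BAX, BAK1, BID and BIK were higher in H929 and BCL2 and BCL2L1 higher in MM1S on both scales. MCL1 held 528 to 799 FPKM in the 6 H929 libraries and 86.9 to 239.9 in the 6 MM1S libraries, a difference (H929 minus MM1S) of 1.97 ± 0.18 as deposited and 0.74 ± 0.06 rescaled (adjusted p = 2.29e-09 and 5.81e-10). BAX differed by 2.46 ± 0.21 and 1.24 ± 0.14, and BIK by 2.69 ± 0.24 and 1.57 ± 0.19. The deposited BIK values, 27.9 to 40.8 FPKM in H929 and 2.45 to 9.25 in MM1S, were far from overlapping. BCL2L1 stood at 7.71 to 9.26 in H929 and 10.2 to 33.7 in MM1S (-1.18 ± 0.19, adjusted p = 7.64e-06; rescaled -2.28 ± 0.09, adjusted p = 2.05e-14). BCL2 differed by -1.07 ± 0.19 and -1.96 ± 0.11.

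The remaining BH3-only genes, BCL2L11, BBC3 and PMAIP1, were lower in H929 after rescaling only, by differences of -1.47 ± 0.14, -1.39 ± 0.15 and -1.14 ± 0.18 (adjusted p = 1.8e-08, 4.38e-08 and 1.69e-05). As deposited these were -0.39 ± 0.18, -0.21 ± 0.26 and -0.37 ± 0.20 and none was called (adjusted p = 0.0606, 0.465 and 0.11). BCL2L11 was called as deposited without any 1 of 4 libraries, H929 DMSO 24 h replicate 1, MM1S DMSO 6 h replicate 1 or MM1S DMSO 24 h replicate 1 or 3 (adjusted p from 0.031 to 0.0471), and PMAIP1 without the last of these (0.0382). In all, 5 members were higher and 2 lower in H929 as deposited, where 61.7% and 10.3% of all genes were called. Rescaled, 5 were higher and 5 lower, with 26.6% and 41.1% of genes. H929 thus had more RNA of MCL1 and the effectors and MM1S more of BCL2 and BCL2L1.

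**Figure D5:**
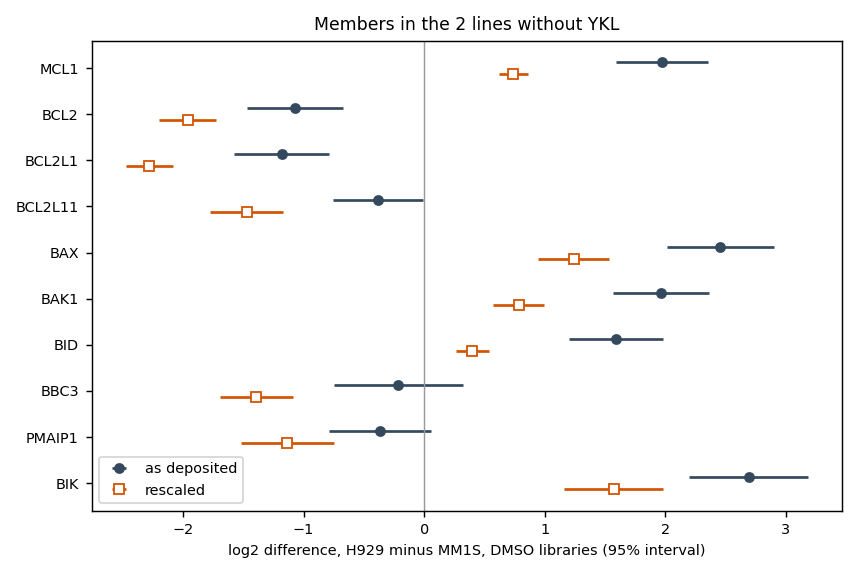
Log2 difference between the lines in DMSO libraries, H929 minus MM1S over both times, with the 95% interval of the limma fit, filled circles as deposited and open squares rescaled. MCL1, BAX, BAK1, BID and BIK lie right of 0 on both scales and BCL2 and BCL2L1 left of it; BCL2L11, BBC3 and PMAIP1 lie left of 0 with intervals clear of 0 only after rescaling for BBC3 and PMAIP1.

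The vehicle cultures themselves changed between 6 h and 24 h in MM1S. As deposited 8 of the 10 members were called lower there, all but BBC3 and BIK, and 0 higher, beside 56% and 0.258% of all genes. No member had a change above 0, and all 10 had an unadjusted limma p under 0.05, as had 7573 genes. Without MM1S DMSO 24 h replicate 3 the falls of MCL1, BCL2 and PMAIP1 were no longer called (adjusted p = 0.0973, 0.108 and 0.211), nor was that of BCL2 without 24 h replicate 1 (0.051) or of PMAIP1 without 6 h replicate 1 or 2 or 24 h replicate 1 (0.0624 to 0.096). The scale factor of the 24 h libraries was 0.437 times that at 6 h. After rescaling MCL1 was higher at 24 h (0.36 ± 0.08, adjusted p = 0.00709), and BAK1 (-0.71 ± 0.14, adjusted p = 0.00353) and BID (-0.39 ± 0.09, adjusted p = 0.00968) were lower, where 10.3% and 5.38% of genes were called. BAK1 and BID fell on both scales, BAK1 from 34.0, 38.0 and 28.7 FPKM at 6 h to 7.71, 13.7 and 6.22 at 24 h. In H929 no member was called between the times with DMSO on either scale (0 of 10; limma called 0.145% of all genes as deposited and 1.02% rescaled). At an unadjusted p under 0.05 there were 0 members and 895 genes as deposited, and 2 members and 1831 genes rescaled.

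Differences of the YKL response were tested as interactions, and none was called for a member as deposited. Between lines 21 genes at 6 h (0.169%) and 169 at 24 h (1.36%) were called on that scale, and between times 803 in H929 (6.47%) and 10 in MM1S (0.0805%). The members had unadjusted p-values under 0.05 in 2, 5, 2 and 4 cases, beside 1283, 2493, 3098 and 1126 of the 12418 genes tested. Without MM1S DMSO 24 h replicate 2, MCL1 (-1.25, adjusted p = 0.0112) and BCL2 (-1.27, adjusted p = 0.0156) were among those called between lines at 24 h, and BCL2L11 (1.70, adjusted p = 0.0148) and BBC3 (2.03, adjusted p = 0.0257) were called between times in MM1S. Rescaled, the change of MCL1 was smaller in H929 than in MM1S at 6 h (-0.60 ± 0.12, adjusted p = 0.0125). It was the 1 member called lower, with 0 higher, beside 0.411% and 0.725% of genes. At 24 h the change of BCL2L1 was larger in H929 (0.71 ± 0.19, adjusted p = 0.0173, or 0.0502 without MM1S YKL replicate 3) and that of BCL2 larger in MM1S (-0.74 ± 0.23, adjusted p = 0.0383). The BCL2 call was lost without any 1 of 8 libraries (adjusted p from 0.0559 to 0.0974). In that test 2 members were called higher and 2 lower beside 8.02% and 4.32% of genes. From 6 h to 24 h the response of BCL2L11 in MM1S went from -0.60 to 0.71 and that of BBC3 from -0.28 to 1.12, differences of 1.31 ± 0.29 and 1.39 ± 0.29 (adjusted p = 0.00576 and 0.00355). In MM1S 4 members were called higher and 1 lower in that test (4.31% and 6.28% of genes), and in H929 2 higher and 0 lower (5.77% and 4.65%). The 24 h and 6 h DMSO groups of MM1S differ in scale, as given above, and enter these differences.

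Of the other BCL2 family genes 14 had an entry and 9 were tested. In H929 at 24 h 4 were lower and 0 higher as deposited, beside 35.4% and 2.67% of all genes. Of the 9, limma gave those 4 alone an unadjusted p under 0.05, beside 5821 of the 12418 genes tested. Rescaled 1 was lower and 4 higher, beside 12.5% and 20.8%. BCL2L12, a divergent family member, fell on both scales, from 215 ± 39.9 to 71.6 ± 27.7 FPKM (-1.63 ± 0.25, adjusted p = 4.66e-05; rescaled -0.80 ± 0.12). BMF, a BH3-only gene, rose after rescaling (1.30 ± 0.17, adjusted p = 5.27e-06), and BNIP3 and HRK fell as deposited (-1.34 ± 0.27 and -1.15 ± 0.32). In MM1S at 24 h rescaled BCL2A1, a protective relative, rose from 1.66 ± 0.97 to 5.41 ± 1.62 (1.30 ± 0.39, adjusted p = 0.0173).

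Downstream of the members, the mitochondrial pore and apoptosome genes (12 tested of 13) had 1 higher and 8 lower in H929 at 24 h as deposited, beside 2.67% and 35.4% of all genes. Rescaled they had 3 and 3, beside 20.8% and 12.5%. CYCS, cytochrome c, fell on both scales there (-1.63 ± 0.29, adjusted p = 0.000179; rescaled -0.80 ± 0.10, adjusted p = 6.12e-06), while CASP9, the caspase of the apoptosome, rose after rescaling (0.99 ± 0.17, adjusted p = 0.000148). ENDOG, a mitochondrial nuclease, rose from 1.27 ± 1.03 to 9.25 ± 4.94 FPKM as deposited (2.18 ± 0.47, adjusted p = 0.0011). In MM1S CASP6, an executioner caspase, fell at 6 h on both scales (-1.46 ± 0.30, adjusted p = 0.00396; rescaled -1.04 ± 0.23, adjusted p = 0.0052). At 24 h in MM1S VDAC1 fell on both scales (-1.03 ± 0.29, adjusted p = 0.0335, and rescaled -0.76 ± 0.18). CYCS was called lower there after rescaling only (-0.63 ± 0.10). The list's rescaled median change was -0.03 in H929 and -0.28 in MM1S at 24 h, beside 0.13 and 0.05 over all genes.

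Of the 5 inhibitor of apoptosis (IAP) genes tested, BIRC5 (survivin), which is made in dividing cells, fell at 24 h on both scales in both lines: with changes of -1.80 ± 0.28 in H929 and -1.40 ± 0.28 in MM1S as deposited, and -0.97 ± 0.10 and -1.17 ± 0.10 rescaled (adjusted p = 4.44e-05, 0.0021, 6.31e-07 and 5.97e-08). In MM1S at 6 h it rose after rescaling, from 64.7 ± 3.25 to 83.1 ± 5.83 rescaled FPKM (0.36 ± 0.10, adjusted p = 0.0252). BIRC3 fell in MM1S at 6 h on both scales (-1.11 ± 0.22, adjusted p = 0.00276; rescaled -0.68 ± 0.13). BIRC2 rose after rescaling in H929 at 6 h (0.48 ± 0.14) and in MM1S at both times (0.96 ± 0.14 and 0.83 ± 0.14). In the death receptor arm all 10 genes were tested. TNFRSF10B, the TRAIL receptor DR5, rose in H929 at 6 h from 8.68 ± 2.4 to 18.3 ± 4.31 FPKM (1.00 ± 0.25, adjusted p = 0.0357; rescaled 1.12 ± 0.13), and CFLAR, an inhibitor of caspase-8, fell (-1.23 ± 0.26, adjusted p = 0.0141; rescaled -1.01 ± 0.13). CFLAR also fell in MM1S at 6 h on both scales (-0.90 ± 0.26, adjusted p = 0.0308; rescaled -0.45 ± 0.13) and rose there at 24 h after rescaling (0.92 ± 0.13, adjusted p = 1.82e-05). In MM1S at 24 h 6 genes of the arm were higher and 2 lower after rescaling, beside 14.4% and 13.3% of all genes. As deposited limma called 0 of the 10 there, with 3 at an unadjusted p under 0.05, beside 2360 of the 12418 genes tested.

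Among the 5 tested genes that set the turnover of MCL1 protein, USP13, a deubiquitinase, fell in MM1S on both scales at 6 h (-0.91 ± 0.27, adjusted p = 0.0311; rescaled -0.51 ± 0.14) and 24 h (-0.92 ± 0.27, adjusted p = 0.0348; rescaled -0.85 ± 0.14). It also fell in H929 at 24 h as deposited (-0.77 ± 0.27, adjusted p = 0.0265). HUWE1 and FBXW7, ubiquitin ligases of MCL1, fell in H929 at 24 h as deposited (-0.94 ± 0.28 and -0.78 ± 0.29), and USP9X rose there after rescaling (0.42 ± 0.12). FBXW7 rose in MM1S at 24 h after rescaling (0.49 ± 0.16, adjusted p = 0.0268). Protein was not measured. Of 7 tested transcription factors of BH3-only genes, E2F1 fell at 24 h in both lines on both scales, from 71.7 ± 4.24 to 9.66 ± 2.82 FPKM in H929 and from 12.7 ± 6.40 to 1.09 ± 0.417 in MM1S as deposited (-2.81 ± 0.28 and -2.64 ± 0.28, adjusted p = 2.47e-07 and 1.68e-06). ATF4, which acts on PMAIP1 and BBC3 under stress, fell in H929 at 6 h (-1.23 ± 0.31, adjusted p = 0.0357; rescaled -1.03 ± 0.15) and 24 h (-2.28 ± 0.31, adjusted p = 1.12e-05; rescaled -1.44 ± 0.15). FOXO3, known to act on BCL2L11, was called on the rescaled values only. It fell in H929 at 6 h (-0.47 ± 0.13, adjusted p = 0.0329) and rose in MM1S at 24 h (0.64 ± 0.13, adjusted p = 0.00116). These lists give names and values and no test of a link to the members.

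Over the 8 group means of rescaled log2 values, the genes most like a member had Pearson r from 0.967 to 0.998, among all genes tested and leaving out the other members. They were ZNF75D and RAB35 for MCL1, CECR1 and PIGG for BCL2L1, SEC62 and XAB2 for BCL2, SOWAHC and DSCR3 for BCL2L11, ZPR1 and GRPEL1 for BAX, PPP2R5E and CARM1 for BAK1, NELFCD and SLC35A4 for BID, AK9 and MYSM1 for BBC3, HADH and RPA3 for PMAIP1, and MPPED2 and EBAG9 for BIK. With 8 points that fall into 2 lines, such values describe the groups only. MCL1 lies on chromosome 1, BCL2L11 on 2, BAK1 on 6, BCL2 and PMAIP1 on 18, BAX and BBC3 on 19, BCL2L1 on 20, and BID and BIK on 22. Exons of BCL2L1, BCL2L11 and BAK1 overlap a gene on the opposite strand (ABALON, MIR4435-2HG and GGNBP1), those of MCL1 overlap ADAMTSL4-AS1, and those of BBC3 hold MIR3190 and MIR3191 in the GENCODE annotation. ADAMTSL4-AS1 lies on the strand of MCL1 and MIR3191 on that of BBC3, so the strand of a read cannot separate these pairs. MIR3190 lies opposite BBC3. Whether counting used the strand is not given in the sources used here, so reads of the opposite-strand pairs may not be told apart either.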

How the data were processed

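Expression was measured in 24 libraries, 3 in each of 8 groups. Per the labels' protocols, cells were lysed in Trizol and libraries prepared with a QuantSeq 3′ kit. Per the submitters' processing notes, the authors used HISAT2, Cuffnorm and the build hg19. Versions, and whether spike-ins set the scale, are not given in the sources used here. The deposited values were read as FPKM, the unit Cuffnorm writes, with 26341 entries of which 92 are ERCC spike-ins and 26249 are genes. They hold no counts, so depth is unknown and counting error cannot be given. Every per-sample column was used.

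Genes with at least 1 FPKM in 3 libraries (12418) entered 1 limma fit (limma 3.58.1 with trend, R 4.3.3) of log2(FPKM + 1) with 8 group means, Benjamini-Hochberg adjustment and a threshold of 0.05. The log2 change is on the log2(value + pseudocount) scale and understates changes of low genes. The fit was repeated on values divided by median-of-ratios factors from genes of at least 5 FPKM (geometric mean), and was tested on simulated data. Ratios to MCL1 were compared by exact permutation tests. Promoters come from RefSeq (GRCh38.p14) and chromosomes and overlaps from GENCODE on GRCh38. Named are the 10 members, up to 3 genes of each list with the smallest p past the threshold in each YKL comparison and on each scale, and the 2 genes most like each member. The text describes a selection of those. The members and lists were chosen with earlier results of these data known. Alternatives were other scalings, pseudocounts, filters, array weights, a replicate block, fits of each comparison alone, and leaving out libraries.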

Additional observations from a re-analysis of the deposited data

Results flagged for a closer look

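For 12 responses of a member the difference between lines or between times passed an interaction test in the limma fit of rescaled values, and none of these passed as deposited. Between lines (H929 minus MM1S), MCL1 differed by -0.60 ± 0.12 at 6 h (adjusted p = 0.0125) and by -0.37 ± 0.12 at 24 h (adjusted p = 0.0415). The 24 h value lost its call without any 1 of 8 of its 12 libraries, with adjusted p from 0.0525 to 0.111. At 24 h BCL2 differed by -0.74 ± 0.23 (adjusted p = 0.0383), BCL2L1 by 0.71 ± 0.19 (adjusted p = 0.0173) and PMAIP1 by 1.39 ± 0.37 (adjusted p = 0.0173). PMAIP1 stood at 1.06 ± 0.35 rescaled FPKM with DMSO in H929 and 3.85 ± 0.75 in MM1S, and at 0.69 ± 0.35 and 0.54 ± 0.50 with YKL. With 1 FPKM added before the log, the lower start in H929 leaves less room to fall. The PMAIP1 difference therefore cannot tell a weaker response from a lower start.

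Between times in H929 (24 h minus 6 h), BCL2L1 differed by 0.80 ± 0.19 (adjusted p = 0.00835) and MCL1 by 0.57 ± 0.12 (adjusted p = 0.0027). Between times in MM1S, BBC3 differed by 1.39 ± 0.29 (adjusted p = 0.00355), BCL2L11 by 1.31 ± 0.29 (adjusted p = 0.00576), BCL2 by 0.78 ± 0.23 (adjusted p = 0.0335), BCL2L1 by 0.59 ± 0.19 (adjusted p = 0.0479) and PMAIP1 by -1.40 ± 0.37 (adjusted p = 0.0176). Of these, BCL2 lost its call without any 1 of 7 libraries (adjusted p from 0.0555 to 0.0924) and BCL2L1 without any 1 of 9 (0.0505 to 0.135). PMAIP1 lost it without YKL 24 h replicate 2 (-1.21, adjusted p = 0.0544) and without both libraries of scattered spike-ins (-1.13, adjusted p = 0.0811).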

How the results depend on the processing

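Counts below are members called out of 10 by limma, and values are log2 changes. For each change the cause was not tested. Shares of all genes called were given above for the deposited and rescaled fits only. A setting can change calls over all genes, so the other counts are not read as results about the members. Median-of-ratios rescaling of the deposited values gave 1 call in H929 at 6 h, 2 in H929 at 24 h, 7 in MM1S at 24 h, 1 and 4 between lines at 6 h and 24 h, 2 and 5 between times in H929 and MM1S, and 3 between times in MM1S with DMSO. Equal summed gene FPKM gave 1 in H929 at 6 h, 5 in H929 at 24 h (5 higher and 0 lower, against 1 and 3 as deposited), 2 and 7 in MM1S at 6 h and 24 h, 3 between lines at 24 h, 3 and 8 between times in H929 and MM1S, and 2 between times in MM1S with DMSO. Array weights gave 1 in H929 at 6 h, 6 and 6 in MM1S at 6 h and 24 h, 3 and 7 between lines, 1 and 7 between times, and 1 between times in H929 with DMSO. Fits of only the libraries of a comparison gave 2 in H929 at 24 h, 2 in MM1S at 6 h and 5 between times in MM1S with DMSO. A pseudocount of 0.1 gave 2 in MM1S at 24 h, and leaving out both libraries of scattered spike-ins gave 0 in MM1S at 6 h.

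Directions turned for MCL1 in H929 at 24 h (0.74 rescaled, 0.91 with equal sums, 0.081 with weights) and between times in H929 (0.57, 0.73 and 0.021), for BID in H929 at 24 h (0.14 with equal sums) and for BBC3 between lines with DMSO (0.031 with weights). Between times in MM1S with DMSO they turned for MCL1 (0.36 rescaled, 0.51 with equal sums), BCL2 (0.19, 0.33), PMAIP1 (0.12, 0.23) and BCL2L1 (0.064 with equal sums). Of the member and comparison pairs called on neither scale, 20 of 65 differed in sign between scales.

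Leaving out each library in turn gave 1 to 4 calls as deposited in H929 at 24 h, 0 to 1 in MM1S at 6 h, 1 to 5 in MM1S at 24 h, 0 to 6 between lines at 24 h, 0 to 2 between times in MM1S, and 5 to 10 between times in MM1S with DMSO. Rescaled it gave 1 to 2 in MM1S at 6 h, 2 to 4 between lines at 24 h, 2 to 6 between times in MM1S and 0 to 1 between times in H929 with DMSO. Values ranged from -0.23 to 0.13 for MCL1 in H929 at 24 h, -0.25 to 0.16 for MCL1 and -0.11 to 0.48 for BCL2L1 between times in H929, -0.0056 to 0.51 for BAK1 in MM1S at 24 h, -0.047 to 0.55 for BCL2L1 between lines at 24 h, and -0.41 to 0.024 for BBC3 between lines with DMSO.

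Replicate numbers did not pair the samples: deviations of same-numbered libraries correlated between -0.11 and 0.18 as deposited and between -0.13 and 0.19 rescaled, over 0.1 in 1 of 12 pairs on each scale. As deposited, a replicate block lost the call of PMAIP1 between times in MM1S with DMSO (limma adjusted p = 0.0514), 1 of the 8 called without the block. Rescaled, where the block, the pseudocount of 0.1 and leaving out libraries were chosen after seeing the data, it gave 2 in MM1S at 6 h, 0 between lines at 6 h (MCL1, adjusted p = 0.0588; between lines at 24 h, 0.0709) and 1 between times in MM1S with DMSO, and a pseudocount of 0.1 gave 2 between lines at 24 h and 3 between times in MM1S. The 3 libraries of a group limit the precision of every value.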
